A study of Mus musculus with 2 samples.

Results

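Thioredoxin, peroxiredoxin and catalase genes were followed across the cells of 2 spleen libraries, with the question how the defense against peroxides was divided between erythroid cells and macrophages. The group held 10 genes chosen by symbol: Txnrd1, Txn1, Srxn1, Prdx1, Prdx2, Prdx5, Prdx6, Cat, Sod1 and Nqo1. All 10 were found among the 26124 genes of the count matrices. Spleen cells of 1 mouse per library were depleted of mature red cells by lysis, enriched with beads against the macrophage protein F4/80 and sequenced with a droplet method that tags the 3′ end of each transcript with a unique molecular identifier (UMI).

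Both mice were untreated and 12 to 16 weeks old, and both carried the human sickle transgene Tg(HBA-HBBs)41Paz and were labelled Hba-/-. The mouse labelled SCD (sickle cell disease) was labelled Hbb-/-, whereas the mouse labelled wild-type was a non-sickling control, Hbb+/- and hemizygous for the transgene. The control therefore carried the transgene and the loss of Hba as well. The globin counts went against these labels. Hbb-bs, a mouse adult β-globin gene, had 57.0 counts per 1000000 UMIs (CPM) under the wild-type label but 10551 CPM under the SCD label, and Hba-a1 was counted in both libraries, at 10915 and 3531 CPM. The libraries are therefore named by their labels throughout, and a direction between them is a direction between labels.

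Reactive oxygen is a by-product of heme and iron chemistry, and superoxide dismutases turn superoxide into hydrogen peroxide. Catalase destroys peroxide directly, while most peroxiredoxins reduce it with a cysteine that thioredoxin, itself reduced by thioredoxin reductase, restores. Sulfiredoxin rescues some of the peroxiredoxins that were oxidized too far. Peroxiredoxin 2 is among the most abundant proteins of the red cell, and red pulp macrophages of the spleen take up old red cells and break down their heme. Several of these genes are known targets of NRF2, a transcription factor that binds the antioxidant response element with small MAF proteins.

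The libraries held 24144 and 15442 barcodes with 145953464 and 73986356 UMIs, of which 19418 and 12279 cells passed the filters, with a median of 4115.5 and 4571 UMIs per cell (wild-type and SCD labels in that order, as throughout). The libraries shared 107 barcodes, 65 of them among the kept cells of both. Cells were clustered without the 10 genes or other redox, hemoglobin and heme genes, and the clusters were then sorted into classes by marker genes. These markers did include heme and iron genes, namely Alas2 and Tfrc for erythroid cells and Slc40a1 for macrophages. Alas2, used below as a tracer and to order clusters, thus took part in naming the classes. Red pulp macrophage-like (RPM-like) cells numbered 4757 and 1618, erythroid-like cells 2053 and 184, and cells with both macrophage and erythroid markers, called erythroblastic island-like (EBI-like), 5642 and 901. Of the kept cells, RPM-like cells made up 24.5% and 13.2%, erythroid-like cells 10.6% and 1.5%, and EBI-like cells 29.1% and 7.3%. The paper that reported the libraries describes red pulp and island macrophages as expanded in the SCD mouse, which is the opposite direction between the labels. In the erythroid-like cells 11 of 11 erythroid markers stood at least 2 times above the main B lymphocyte-like cluster (504 and 1727 cells, the B lymphocyte-like cells below) in each library, at a summed 16173 and 17028 CPM. In the RPM-like cells 10 of 10 macrophage markers did, at 30138 and 28081 CPM. The macrophage markers summed to 7067 and 3569 CPM in the erythroid-like cells and to 3449 and 2262 CPM in the B lymphocyte-like cells, none of them at 0. In the erythroid-like cells 7 and 0 of the 10 reached 2 times the B lymphocyte-like level. Their part in the levels below was not tested. With 1 library per condition no difference has a replicate check. The 95% intervals cover counting error only, and fewer than 100 UMIs are pointed out where a ratio rests on them. Reads shared with processed copies of Prdx2, Prdx6 or Txn1, or with Eid3 inside Txnrd1, could be split by the counting and make those genes less certain. Neighbors also overlap Prdx2 (Rnaseh2a, Junb), Prdx5 (Trmt112) and Sod1 (Scaf4) on the opposite strand. These matter only where reads are counted without regard to strand.

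The starts of the genes were searched for short sequence motifs. RefSeq windows of 250 bases before the start (GRCm38.p6) were at hand for 9 of the 10 genes, 11 windows in all since Txnrd1 has several starts. The core of the antioxidant response element, searched on both strands as TGACNNNGC or TGAGNNNGC, lay in the windows of Srxn1, Prdx1, Sod1 and of 1 start of Txnrd1, that is in 4 of the 11 windows. It lay in 23.0% of all 32851 windows. No window held AGATAA (or AGATAG) or, with T first, TGATAA (or TGATAG), on either strand, forms of the motif of the erythroid factor GATA1, which lay in 26.5% of all windows. A match is a run of letters and not a bound site. The windows are printed up to the first annotated exon of the gene, with the core in capitals. Srxn1 (chr2:152105274-152105515, plus strand) held it once on each strand and Prdx1 (chr4:116685349-116685543, plus strand) once. They are shown because these genes took opposite sides between the classes, for Srxn1 by under 2-fold under the SCD label. Sod1 (chr16:90220512-90220753, plus strand) held the core once, and Cat (chr2:103485161-103485403, minus strand) held none of the motifs.
Srxn1: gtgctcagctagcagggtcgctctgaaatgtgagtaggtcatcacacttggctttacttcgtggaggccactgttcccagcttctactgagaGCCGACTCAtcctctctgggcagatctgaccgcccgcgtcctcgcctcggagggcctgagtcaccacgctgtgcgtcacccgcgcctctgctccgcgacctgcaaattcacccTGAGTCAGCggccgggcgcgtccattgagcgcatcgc
Prdx1: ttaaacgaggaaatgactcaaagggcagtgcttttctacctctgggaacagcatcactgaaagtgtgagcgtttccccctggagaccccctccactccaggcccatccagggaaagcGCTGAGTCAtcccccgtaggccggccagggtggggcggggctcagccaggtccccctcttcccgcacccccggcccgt
Sod1: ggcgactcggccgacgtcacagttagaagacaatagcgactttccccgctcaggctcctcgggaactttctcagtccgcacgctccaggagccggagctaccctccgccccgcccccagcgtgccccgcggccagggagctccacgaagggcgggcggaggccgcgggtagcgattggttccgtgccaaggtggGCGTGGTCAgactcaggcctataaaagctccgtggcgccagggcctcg
Cat: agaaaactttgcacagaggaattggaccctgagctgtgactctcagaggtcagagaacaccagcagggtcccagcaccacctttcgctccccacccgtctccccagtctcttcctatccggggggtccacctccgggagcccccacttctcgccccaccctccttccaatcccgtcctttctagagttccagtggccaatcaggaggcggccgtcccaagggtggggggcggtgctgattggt

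**Figure D1:**
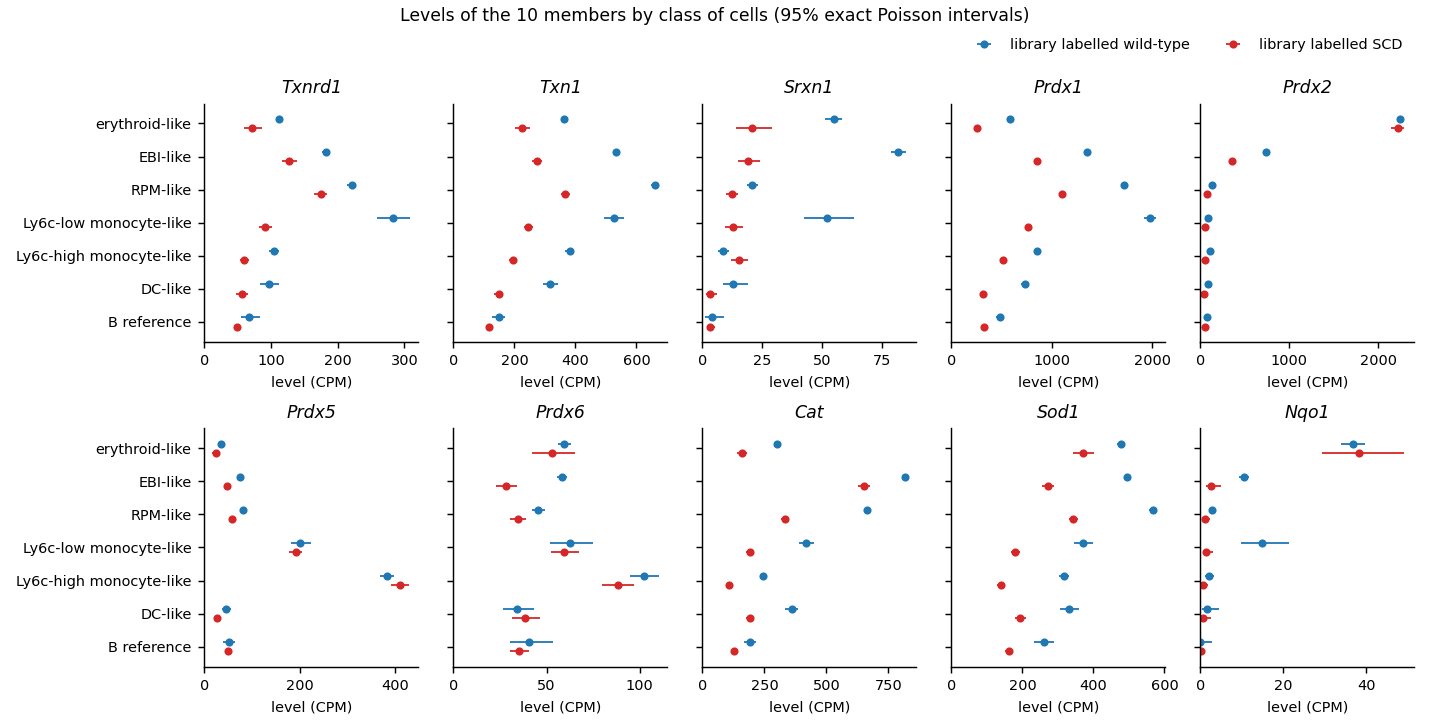
Level of each gene in CPM (x axis, from 0, a scale of its own per gene) in 7 classes of cells (y axis) of the library labelled wild-type (blue) and the library labelled SCD (red), with 95% exact Poisson intervals as bars. Prdx2 and Nqo1 were highest in erythroid-like cells of both libraries, while Prdx1 and Txn1 were lower there than in RPM-like cells.

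Erythroid-like cells were marked by Prdx2 and Nqo1, while Prdx1, Txnrd1 and Txn1 were higher in RPM-like cells of both libraries. Over all genes the median log2 ratio of erythroid-like to RPM-like cells was itself below 0, at -0.32 and -0.62. Each 3′ UMI stands for 1 transcript, so that levels of different genes compare without a length correction. Prdx2, the cytosolic peroxiredoxin of red cells (8:84969587-84974834, plus strand, GRCm38), reached 2245 CPM (95% exact Poisson interval 2223 to 2267) and 2220 CPM (2147 to 2294) in erythroid-like cells. In RPM-like cells it stood at 135 and 77.1 CPM, and in the B lymphocyte-like cells at 72.9 and 54.2 CPM. The level in erythroid-like cells was 16.6 times that of RPM-like cells in the library labelled wild-type (log2 4.05, 3.99 to 4.11) and 28.8 times in the library labelled SCD (log2 4.85, 4.72 to 4.98). When each cell was thinned to 1000 UMIs, which left out 1032 and 281 cells in all classes, 87.5% and 83.2% of erythroid-like cells held a Prdx2 UMI, against 14.6% and 7.11% of RPM-like cells. The B lymphocyte-like cells, whose level holds free RNA of the droplets together with RNA of their own, held one in 7.41% and 4.04%. Without thinning the shares were 99.5% and 98.9% of erythroid-like cells (median 7596 and 7171 UMIs), 33.7% and 27.9% of RPM-like cells (2118 and 4096 UMIs) and 16.7% and 16.2% of B lymphocyte-like cells (2153.5 and 2895 UMIs).

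Nqo1, a quinone reductase and a known NRF2 target (8:107388225-107403206, minus strand), was rare but had the same order. It stood at 36.8 CPM (649 UMIs) and 38.3 CPM (61 UMIs) in erythroid-like cells and at 2.78 and 1.21 CPM (47 and 9 UMIs) in RPM-like cells. In B lymphocyte-like cells it gave 0 and 1 UMI. The ratio of erythroid-like to RPM-like cells was 13.2 (log2 3.73, 3.30 to 4.19) in the library labelled wild-type. Under the SCD label it came to 31.7 (log2 4.99, 3.97 to 6.18) on under 100 UMIs. Of the Nqo1 UMIs in kept cells, 55.6% and 57.0% lay in erythroid-like cells, which held 16.45% and 2.45% of all UMIs.

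Prdx1, a cytosolic peroxiredoxin and the most abundant of those measured in the macrophages (4:116685544-116700822, plus strand), showed the opposite order. It stood at 1719 CPM (1699 to 1739) and 1104 CPM (1080 to 1128) in RPM-like cells and at 583 and 254 CPM in erythroid-like cells. The log2 ratio of erythroid-like to RPM-like cells was -1.56 (-1.59 to -1.53) and -2.12 (-2.27 to -1.98). The B lymphocyte-like cells held 480 and 321 CPM, so that the erythroid-like level was above them by 0.28 (log2, 0.16 to 0.40) in one library and lay below them in the other (-0.34, -0.50 to -0.19). For every 100 Prdx1 UMIs there were 385 and 875 Prdx2 UMIs in erythroid-like cells but 7.88 and 6.98 in RPM-like cells, so that the balance of these peroxiredoxins turned over between the classes in both libraries.

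The enzymes that restore peroxiredoxins followed Prdx1. Txn1, thioredoxin (4:57943373-57956411, minus strand), reached 661 and 367 CPM in RPM-like cells, above the 363 and 225 CPM of erythroid-like cells (log2 -0.86, -0.91 to -0.82, and -0.71, -0.87 to -0.55). Txnrd1, its cytosolic reductase (10:82833951-82897712, plus strand), stood at 221 and 174 CPM against 112 and 71.6 CPM (log2 -0.98, -1.06 to -0.90, and -1.28, -1.57 to -1.01). Both were above the B lymphocyte-like cells (Txn1 148 and 116 CPM, Txnrd1 67.6 and 49.2 CPM) in either class. The Txn1 ratio under the SCD label was near the median of -0.62 over all genes. Srxn1, sulfiredoxin (2:152105516-152111376, plus strand), did not share this order. It stood at 54.8 and 20.7 CPM in erythroid-like cells, against 20.9 and 12.2 CPM in RPM-like cells (log2 1.39, 1.22 to 1.57, and 0.76, 0.14 to 1.35). After thinning to 1000 UMIs, 5.77% of erythroid-like and 2.29% of RPM-like cells held a Srxn1 UMI under the wild-type label. Under the SCD label these shares were nearly even, at 1.63% and 1.49%.

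Catalase (Cat, 2:103453849-103485160, minus strand) was higher in RPM-like than in erythroid-like cells, with 662 and 332 CPM against 303 and 158 CPM (log2 -1.13, -1.18 to -1.08, and -1.07, -1.26 to -0.88). The direction in the library labelled SCD turned with the borders of the class, to log2 0.36 when each library was clustered by itself, 0.088 at a finer clustering and 0.064 with cells from 200 genes. Its highest level lay outside both classes, in EBI-like cells (816 and 651 CPM). Sod1, the cytosolic copper-zinc superoxide dismutase (16:90220754-90226329, plus strand), was nearly even, with 569 and 344 CPM in RPM-like and 478 and 372 CPM in erythroid-like cells. Its log2 ratio was -0.25 (-0.29 to -0.21) under the wild-type label and 0.11 (-0.02 to 0.24) under the SCD label, where the interval held 0. The median over all genes was lower in each library, at -0.32 and -0.62.

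Prdx5 and Prdx6 had their highest values outside both classes. Prdx5, found in mitochondria, peroxisomes and cytosol (19:6906697-6910106, minus strand), stood at 81.0 and 58.6 CPM in RPM-like and 33.9 and 23.9 CPM in erythroid-like cells, the latter below the B lymphocyte-like cells (50.7 and 48.6 CPM). Its log2 ratio of erythroid-like to RPM-like cells was -1.26 (-1.40 to -1.12) and -1.30 (-1.81 to -0.82). Its highest value was in neutrophil-like cells (763 CPM over 278 cells and 586 CPM over 13 cells), followed by Ly6c-high monocyte-like cells (383 and 410 CPM). Under the SCD label, with 22 UMIs in the neutrophil-like cells, these intervals overlapped. Prdx6, which also has phospholipase activity (1:161240112-161251219, minus strand), was low, with 45.6 and 34.4 CPM in RPM-like, 59.6 and 52.7 CPM in erythroid-like and 40.7 and 35.2 CPM in B lymphocyte-like cells. Its RPM-like level and that of the B lymphocyte-like cells did not differ beyond their intervals in either library. Neutrophil-like cells held 199 and 160 CPM (408 and 6 UMIs), the latter with an interval that overlapped that of the T or NK lymphocyte-like cells.

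**Figure D2:**
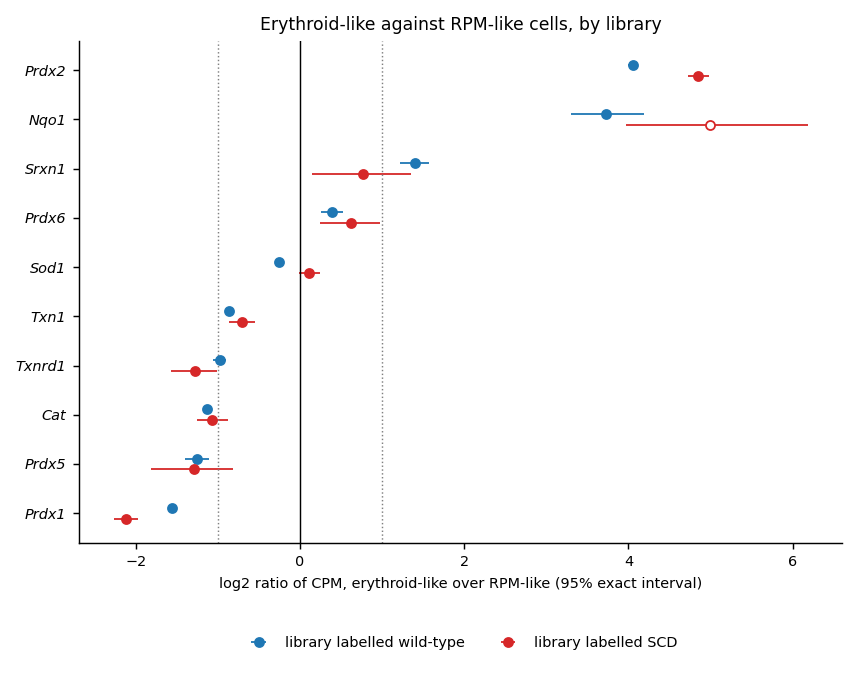
Log2 ratio of CPM in erythroid-like over RPM-like cells (x axis) for each gene (y axis) in the library labelled wild-type (blue) and the library labelled SCD (red), with 95% exact intervals; dotted lines mark 2-fold and the open circle a gene with under 100 UMIs. Prdx2 lay at 4.05 and 4.85 and Nqo1 at 3.73 and 4.99, above the other genes, and Prdx1 lay lowest at -1.56 and -2.12.

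Of the 10 genes in the library labelled wild-type, 3 (Prdx2, Nqo1 and Srxn1) were at least 2-fold higher in erythroid-like cells, where 19.7% of 10474 genes were, and 3 (Prdx1, Prdx5 and Cat) were at least 2-fold lower, where 32.5% were. Genes with at least 100 UMIs over both classes were counted. Of 9 such genes in the library labelled SCD, 1 (Prdx2) was higher, against 15.8% of 8553 genes, and 4 (Prdx1, Prdx5, Txnrd1 and Cat) were lower, against 41.6%. The median log2 ratio was -0.56 and -0.71, beside -0.32 and -0.62 over all genes. The shares of lower genes were near those of all genes, so that the list as a whole was not set apart by its count. Set against the B lymphocyte-like cells, 6 of 9 genes were at least 2-fold higher in RPM-like cells of either library, namely Txnrd1, Txn1, Srxn1, Prdx1, Cat and Sod1. This held for 20.2% and 18.8% of all genes. None of the 9 was 2-fold lower, which 16.6% and 13.3% of all genes were. Over both libraries Prdx2, Prdx5 and Prdx6 stood under 2 times the B lymphocyte-like level in RPM-like cells.

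The order of the classes was alike in its top ranks for Txnrd1 and Prdx1, and less so for Txn1. Txnrd1 and Prdx1 of the library labelled wild-type were highest in Ly6c-low monocyte-like cells (283 and 1977 CPM), followed by RPM-like cells (221 and 1719 CPM) and EBI-like cells (182 and 1350 CPM), and none of these neighbors had overlapping intervals. In the library labelled SCD the Ly6c-low monocyte-like cells stood lower, at 91.6 and 760 CPM, and RPM-like cells were highest for both genes (174 and 1104 CPM). (Ly6c-low monocytes are known to patrol vessels.) Txn1 was highest in RPM-like cells under the wild-type label, and its levels in neutrophil-like, EBI-like and Ly6c-low monocyte-like cells (543, 533 and 525 CPM) had overlapping intervals. For Prdx1 the neutrophil-like cells were instead the lowest class under that label (385 CPM). In the other library Txn1 had its highest value in the 13 neutrophil-like cells (639 CPM, 24 UMIs), followed by RPM-like cells (367 CPM).

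**Figure D3:**
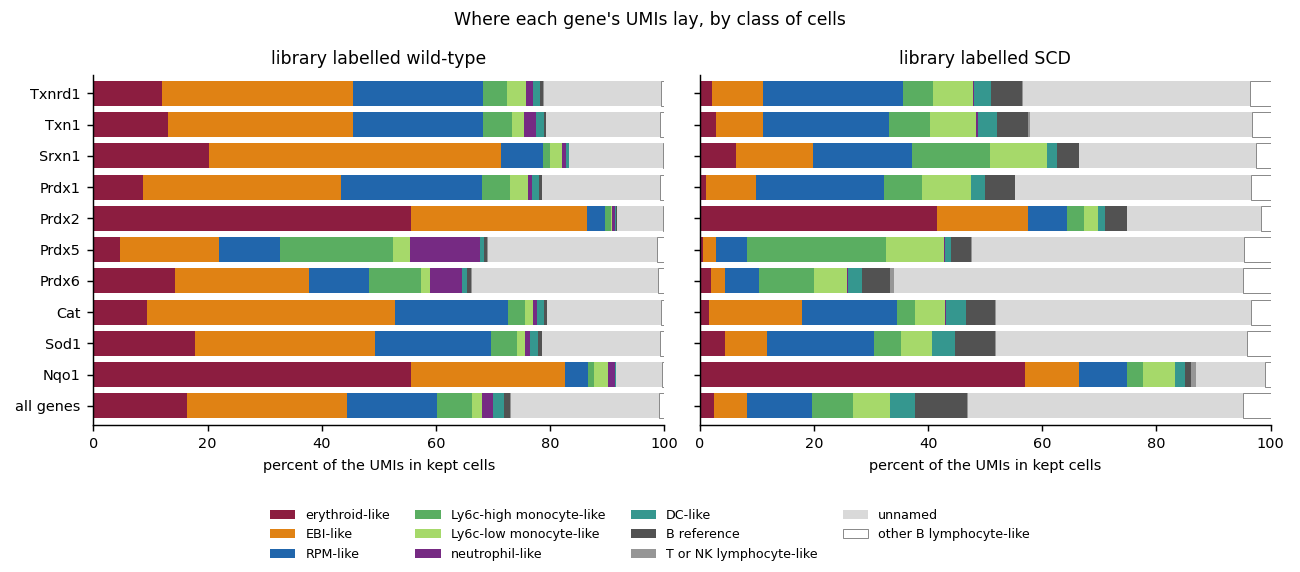
Percent of each gene's UMIs in kept cells (x axis) by class of cells (colors), for the 10 genes and for all genes together (y axis), in each library. Erythroid-like cells held 55.6% and 41.6% of the Prdx2 UMIs but 8.77% and 1.10% of the Prdx1 UMIs.

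EBI-like cells, named for carrying macrophage and erythroid markers together, held genes of both sides. In the library labelled wild-type Prdx1 (1350 CPM), Txn1 (533 CPM) and Txnrd1 (182 CPM) lay below the RPM-like and above the erythroid-like levels. Prdx2 (734 CPM) and Nqo1 (10.5 CPM) lay above the RPM-like and below the erythroid-like levels. Srxn1 (81.9 CPM) and Cat (816 CPM) were above both classes. In the library labelled SCD they held 852 CPM of Prdx1, 360 CPM of Prdx2, 2.67 CPM of Nqo1, 18.9 CPM of Srxn1 and 651 CPM of Cat. Hba-a1, a tracer of erythroid RNA, stood at 16841 and 23153 CPM in them, against 926 and 163 CPM in RPM-like cells. In 1 of their clusters (leading genes Mt2, Car1 and Gfi1b) 43.5% of the cells were called doublets, and how far such droplets held a macrophage with an erythroid cell was not tested. Clusters of this class differed widely. Cat was highest in the cluster led by Xpo7, Tmcc2 and Hspa1b (1148 and 1042 CPM), where Alas2, the erythroid enzyme that starts heme synthesis, stood at 3008 and 3775 CPM. Srxn1 was highest in the cluster led by Oas1e, Slfn14 and Fam220a of the library labelled wild-type (181 CPM), in which Prdx2 stood at 291 CPM and Alas2 at 724 CPM.

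Within erythroid cells the genes differed along the level of Alas2, as a finer clustering (resolution 2) showed. It gave 3 erythroid-like clusters with at least 50 cells in each library, ordered here by Alas2. The lowest (leading genes Tac2, Car1 and Cdc6, 1048 and 104 cells) stood at 1033 and 1032 CPM of Alas2 and 2896 and 3423 CPM of the proliferation gene Mki67. The middle cluster (Gm867, Apol8 and Ube2c, 803 and 56 cells) held 2224 and 2547 CPM of Alas2. The highest (Xpo7, Tmcc2 and Sowaha, 682 and 117 cells) held 5062 and 4790 CPM of Alas2 and 511 and 487 CPM of Mki67, and shared Xpo7, Tmcc2 and Sowaha with the leading genes of the Cat-rich cluster that the coarser clustering placed in the EBI-like class.

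Over the clusters shared by the libraries, Cat was higher at each step in both, at 187, 463 and 1453 CPM and at 114, 243 and 1283 CPM, with no overlap of the intervals. The cluster highest in Alas2, called erythroid-like in this finer clustering, thus held more Cat than the RPM-like cells of the main clustering (662 and 332 CPM). The cluster lowest in Alas2 held less. Prdx2 was high throughout, with 2172, 2505 and 2742 CPM under the wild-type label. Under the SCD label it stood at 2266, 2690 and 1177 CPM (1066 to 1297 for the last), so that the cells highest in Alas2 held less than the others. Srxn1 was also highest at the highest Alas2 level under the wild-type label, at 185 CPM (167 to 204) after 83.9 CPM, whereas it stood at 25.3, 13.1 and 37.2 CPM under the SCD label (24, 5 and 13 UMIs), with overlapping intervals. Prdx1 stood at 453, 746 and 734 CPM and at 206, 332 and 298 CPM, and Nqo1 was lowest in the last, at 22.8 and 5.7 CPM (48 and 2 UMIs). The macrophage gene Vcam1 stood at 1265, 2535 and 2354 CPM in these clusters under the wild-type label and at 756, 1103 and 1092 CPM under the SCD label, beside the Prdx1 values. Its part in them was not tested.

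**Figure D4:**
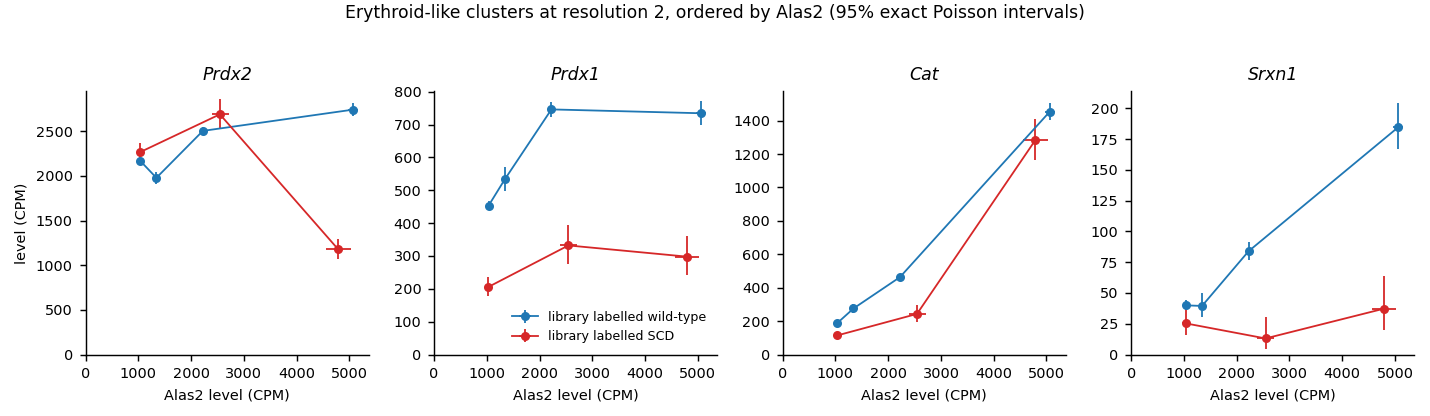
Levels of 4 genes in CPM (y axis, from 0) against the Alas2 level in CPM (x axis) in the erythroid-like clusters of the finer clustering with at least 50 cells, for the library labelled wild-type (blue, 4 clusters) and the library labelled SCD (red, 3 clusters), with 95% exact Poisson intervals. Cat was lowest at the lowest Alas2 level (187 and 114 CPM) and highest at the highest (1453 and 1283 CPM), while Prdx2 was already at 2172 and 2266 CPM in the first.

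Between the libraries most of the genes were lower in the one labelled SCD in each of the 4 classes compared. In RPM-like cells all 9 genes with at least 100 UMIs had a log2 ratio below 0, with a median of -0.73 beside 0.20 over 9997 genes, but none reached 2-fold either way, where 9.13% of all genes were at least 2-fold higher and 4.39% lower. The largest shift was that of Cat, from 662 to 332 CPM (log2 interval -1.06 to -0.93). Txn1 followed (-0.85, -0.91 to -0.79), then Prdx2 (-0.81), Srxn1 (-0.77), Sod1 (-0.73), Prdx1 (-0.64), Prdx5 (-0.47), Prdx6 (-0.41) and Txnrd1 (-0.34, -0.43 to -0.25). The RPM-like cells came from different clusters. Those of the library labelled wild-type lay in a cluster led by Marco, Lox and Me1 (3670 cells, Cat 753 CPM, Prdx1 2032 CPM) and one led by Gm37697, Adam33 and Gm48996 (1039 cells, Cat 570 CPM, Prdx1 1404 CPM). Those of the library labelled SCD lay in one led by Rgs1, Adamdec1 and Cpne4 (1566 cells, Cat 333 CPM, Prdx1 1096 CPM), below both. This last cluster also had 4 Ly6c-low monocyte markers at least 2-fold above the other cells, whereas the clusters led by Marco and by Gm37697 had none.

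The B lymphocyte-like cells shifted the same way. All 8 genes with enough UMIs had a log2 ratio below 0 there, with a median of -0.44 beside 0.06 over 7775 genes. Sod1 (-0.69, -0.87 to -0.50), Prdx1 (-0.58, -0.71 to -0.45) and Cat (-0.57, -0.78 to -0.36) were shifted most. What part of the shift in macrophages came with free RNA or with the library was not tested. With the B lymphocyte-like level taken off, 5 of the genes were at least 2-fold lower in RPM-like cells of the library labelled SCD, where 14.8% of 9997 genes were, against 4.39% without that step. The step also took off what the B lymphocyte-like cells made themselves.

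In erythroid-like cells the shift was uneven. The intervals of Prdx2 (log2 -0.02, -0.07 to 0.03) and Nqo1 (0.06, -0.34 to 0.44), the genes with the highest erythroid-like to RPM-like ratios, held 0. Srxn1 (-1.40, -1.95 to -0.90) and Prdx1 (-1.20, -1.35 to -1.06) were at least 2-fold lower, 2 of 10 genes, against 5.76% of 9050 genes. None was 2-fold higher, which 1.29% of all genes were. The median was -0.58 beside -0.06 over all genes, and Cat (-0.94, -1.12 to -0.75), Txn1 (-0.69) and Txnrd1 (-0.65) lay below it. These rested on 184 cells in the library labelled SCD. The macrophage markers in the erythroid-like cells were lower under that label too, at a summed 7067 and 3569 CPM. Their part in the shift was not tested. In EBI-like cells 4 of 10 genes were at least 2-fold lower (Srxn1 -2.11, Nqo1 -1.98, Prdx6 -1.05 and Prdx2 -1.03), against 6.92% of 10468 genes, and none was higher, against 3.77%. Prdx6 and Prdx2 lay close to the 2-fold limit, and Nqo1 stood at 2.67 CPM there under the SCD label. Hbb-bs stood at 78.0 and 79795 CPM in these cells. With totals free of hemoglobin, mitochondrial and ribosomal-protein UMIs, the median over all genes moved from -0.07 to 0.06. The share of all genes lower was then 5.10%. New totals move every gene of the class alike, which left Prdx6 and Prdx2 short of 2-fold, so that Srxn1 and Nqo1 remained. The EBI-like cells too came from different clusters. A cluster with Hbq1a and Adamdec1 among its leading genes held 635 of the 901 EBI-like cells under the SCD label and 7 cells under the other, while the clusters led by Dock3, Oas1e and Hbq1a (with Tent5c) held 855, 1423 and 1113 cells under the wild-type label against 2, 23 and 14. The Srxn1-rich cluster led by Oas1e was thus almost all from the library labelled wild-type. Cat differed least there (-0.33, -0.39 to -0.27), and the Cat-rich cluster led by Xpo7, Tmcc2 and Hspa1b was at 1148 and 1042 CPM in the libraries.

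**Figure D5:**
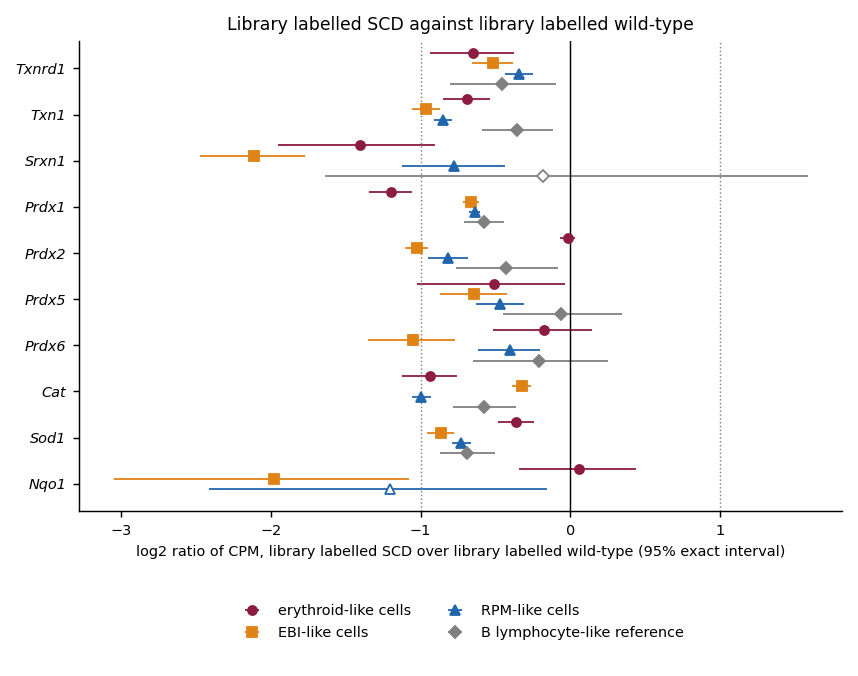
Log2 ratio of CPM in the library labelled SCD over the library labelled wild-type (x axis) for each gene (y axis) in erythroid-like, EBI-like, RPM-like and B lymphocyte-like reference cells, with 95% exact intervals; open symbols mark under 100 UMIs, dotted lines 2-fold, and Nqo1 has no point in the reference, where it gave 0 UMIs in 1 library. Most points lay below 0, with Prdx2 (-0.02) and Nqo1 (0.06) in erythroid-like cells near it.

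Other genes of the same pathways were found on either side. Of 26 further thioredoxin, peroxide and superoxide genes, 25 and 22 had enough UMIs, of which 4 and 6 were at least 2-fold higher in erythroid-like than in RPM-like cells and 10 and 7 lower. Over all genes these shares were 19.7% and 15.8% higher and 32.5% and 41.6% lower, so that the list was not set apart by its lower counts. The mitochondrial enzymes Prdx3 (228 and 184 against 65.4 and 43.7 CPM) and Txnrd2 (107 and 77.8 against 17.0 and 10.7 CPM) were on the erythroid side, whereas the cytosolic Prdx1 and Txnrd1 were not. Location did not sort the genes in general. The cytosolic Prdx2 was on the erythroid side, and Prdx5, found partly in mitochondria, was on the macrophage side. Gpx1, glutathione peroxidase 1 and the most abundant of the list in these cells, stood at 5576 and 5258 CPM in erythroid-like and 1249 and 825 CPM in RPM-like cells. Glrx5, which serves iron-sulfur cluster assembly, stood at 1299 and 1401 against 121 and 78.1 CPM. On the macrophage side were Txnip, a thioredoxin inhibitor (215 and 322 against 76.5 and 92.9 CPM), Txndc17, Glrx, Msra, Sesn3, Nqo2 and Gpx3.

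The regulators and other targets of NRF2 also lay on either side. Of 21 genes, 21 and 19 had enough UMIs, with 5 and 4 higher and 8 and 8 lower in erythroid-like cells, close to the shares over all genes (19.7% and 15.8% higher, 32.5% and 41.6% lower). Both chains of the enzyme that starts glutathione synthesis, Gclm (851 and 805 against 271 and 162 CPM) and Gclc (614 and 557 against 145 and 115 CPM), were on the erythroid side, with Blvrb and Mafk. Hmox1, which breaks down heme, was on the macrophage side (11670 and 7371 against 3045 and 1149 CPM), with Slc48a1, Ftl1, Sqstm1, Pgd, Osgin1 and Abcc1. The NRF2 gene Nfe2l2 itself (91.2 and 101 against 85.4 and 78.5 CPM) and its inhibitor Keap1 (75.8 and 74.9 against 74.2 and 69.7 CPM) were under 2-fold apart.

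The phagocyte NADPH oxidase, a source of superoxide, had its catalytic subunit Cybb at 640 and 576 CPM in RPM-like and 205 and 193 CPM in erythroid-like cells. The B lymphocyte-like cells held 592 and 456 CPM and the Ly6c-high monocyte-like cells 2444 and 2665 CPM of it. In RPM-like cells of the library labelled SCD, Ncf1 (14.4 to 32.0 CPM) and Ncf4 (7.1 to 20.9 CPM) were at least 2-fold higher, in contrast to the direction of the peroxide genes. The subunit genes Cyba (737 to 486 CPM) and Cybb (640 to 576 CPM) were instead lower there, by under 2-fold, as the peroxide genes were. Ncf1 and Ncf4 stood higher in the B lymphocyte-like cells of that library (Ncf1 236 and Ncf4 120 CPM). For Ncf1 this was also above the 150 CPM over all kept cells of that library. The part of free RNA was not tested. At least 2-fold lower in RPM-like cells of that library were Gpx4 (529 to 243 CPM), Gpx3 (45.7 to 18.1 CPM), Msrb1 (126 to 56.8 CPM), the ferritin chains Fth1 (11001 to 5219 CPM) and Ftl1 (11689 to 5745 CPM), Slc7a11 and Me1. For macrophage-enriched spleen cells the paper reports the other direction, with heme and iron genes raised in the SCD mouse. Me1, malic enzyme, stood at 51.9 CPM under the wild-type label and at 2.9 CPM under the SCD label, and in the B lymphocyte-like cells at 12.3 and 0.2 CPM. These further genes were counted from lists put together with earlier results of the data known.

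The genes whose levels followed each one most closely were sought over 41 points, each 1 cluster in 1 library with at least 50 cells, by Pearson r of log2(CPM + 1) among 11709 genes. The clusters share libraries and free RNA, and r is a description. Prdx2 ran with Glrx5 (0.98), Add2 (0.96) and Ank1 (0.95), the latter pair being parts of the red cell skeleton. Prdx1 ran with Akr1a1, Cndp2 and Blvra (0.94 each). Txnrd1 ran with Prdx1 (0.93), the only pair among the 10 genes over 0.9, and with the lysosomal Tpp1 and Ctsb (0.92 each). Cat ran with Ncoa4 (0.92), the receptor that delivers ferritin for breakdown, and the heme transporter Slc48a1 (0.89). Prdx5 ran with Aprt (0.93), Pgd (0.92) and Hp (0.92), haptoglobin. Srxn1 ran with Tnfaip2 (0.90), Txn1 with Sord (0.91), Sod1 with Vcp (0.91) and Nqo1 with Bsg (0.85). For Prdx6 the closest gene was Rps6ka1 at 0.85. Prdx1 and Prdx2 were nearly unrelated (0.19).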

How the data were processed

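The matrices deposited by the authors hold raw UMI counts per gene and barcode. Per the labels and methods, Cell Ranger 4.0.0 aligned reads to GRCm38.p6, whereas the matrix headers name Cell Ranger 3.1.0. Cells with 500 to 5000 genes, at most 15% mitochondrial and at most 30% ribosomal-protein UMIs were kept, with genes in at least 20 cells. Scanpy 1.11.5 clustered both libraries together (2000 variable genes, 30 components, 15 neighbors, Leiden resolution 1, seed 0, Python 3.11.15) without the 10 genes, other redox genes, hemoglobin, sex-linked and heme and iron genes. Of 25 clusters, 17 were named from marker lists, with limits chosen once an initial clustering was known; 4137 and 5054 cells stayed unnamed. Scrublet's own threshold marked 0 cells of the library labelled wild-type, so that the top 10.4% (2022 cells) were taken there and 1723 in the other; doublets were kept and left out only as an alternative.

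UMIs were summed per class and library and given as CPM with exact Poisson intervals (ratios and shares with exact Clopper-Pearson intervals, scipy 1.17.1). Only the ratio and its interval were checked on simulated data, drawn as Poisson counts with known ratios. Clustering, naming and thinning were not simulated. A gene counted as higher or lower at 2-fold or more with at least 100 UMIs over both groups. With 1 library per condition no test was made. Alternatives included scran 1.30.0 size factors (R 4.3.3). The genes of the further lists named beside the 10 were those past 2-fold the same way in both libraries, or past 2-fold between libraries in RPM-like cells. Nfe2l2 and Keap1 were named as well, though under 2-fold apart. Members and lists were chosen with earlier results of these data known. One result for a further gene of these lists is not reported here.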

Additional observations from a re-analysis of the deposited data

How the results depend on the processing

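No paired analysis was possible because each condition had 1 library, and for the same reason no library could be left out. In the main setting 3 and 1 of the 10 genes were at least 2-fold higher in erythroid-like than in RPM-like cells (wild-type and SCD labels) and 3 and 4 were lower. The SCD-label count of higher genes became 2 with cells from 200 genes, with each library clustered by itself, with scran size factors, with the B lymphocyte-like level subtracted and with genes from 20 UMIs, where 13.7%, 12.4%, 21.7%, 23.9% and 16.3% of all genes were higher. The wild-type-label count of lower genes became 1 at resolution 0.5 and 5 with the B lymphocyte-like level subtracted (23.0% and 32.1% of all genes), and the SCD-label count of lower genes became 2 at resolution 0.5, with each library clustered by itself and with scran size factors (37.2%, 43.7% and 36.0% of all genes). Between libraries, the count of genes lower in RPM-like cells under the SCD label (0) became 1 at resolution 0.5, with totals free of hemoglobin, mitochondrial and ribosomal-protein UMIs and with genes from 20 UMIs, 2 with the mean of each cell's CPM, 4 with separate clustering or scran, and 5 after the subtraction. Over all genes the lower share in RPM-like cells was 4.39% in the main setting, 4.34%, 4.81% and 6.42% in the settings that gave 1, 4.37% with the mean of each cell's CPM, 4.89% with separate clustering, 5.97% with scran and 14.8% after the subtraction. The same count in erythroid-like cells (2) became 1 with separate clustering or scran and 4 after the subtraction, where 3.60%, 6.597% and 14.8% of all genes were lower. The count of 4 in EBI-like cells is that of the main setting, where 6.92% of all genes were lower. That share was 5.10% with totals free of hemoglobin, mitochondrial and ribosomal-protein UMIs, where Prdx6 and Prdx2 fell short of 2-fold. The share was 14.5% with cells from 200 genes and 21.1% after the subtraction. The counts of the 10 genes in these last settings are not given here. The Cat ratio of erythroid-like to RPM-like cells under the SCD label (log2 -1.07) turned to 0.064 with cells from 200 genes, 0.088 at resolution 2 and 0.36 with separate clustering. The cause was not tested. Cat was thus not among the lower genes in these settings. Nor did it reach 2-fold with totals free of hemoglobin, mitochondrial and ribosomal-protein UMIs, where the median over all genes moved from -0.62 to -0.45. Of 591 values of single genes under the alternatives, 421 stayed within their 95% intervals, 167 moved further and 3 reversed. Leaving out the barcodes that the libraries share, an alternative chosen after seeing the data, moved none of 60 values beyond its interval. Rare genes such as Nqo1 in RPM-like cells (47 and 9 UMIs) were limited by depth.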
